A study of Paeonia lutea x Paeonia suffruticosa with 9 samples.

Results

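The change from vegetative meristem (stage I) to floral meristem (stage II) was followed in floral buds of 'High Noon', a tree peony cultivar bred as a hybrid of Paeonia lutea and Paeonia suffruticosa. All 3 RNA-seq libraries of stage I (S1_1, S1_2 and S1_3) were compared with all 3 of stage II (S2_1, S2_2 and S2_3), which are 6 of the 9 libraries of the series. Both groups were untreated floral buds of the same cultivar, with plants labelled as 5 years old, and the labels set them apart only by stage. The study staged buds by microscopy of parallel material after the adjacent scales and leaves had been discarded. A library is thus bud tissue and not an isolated meristem, and the study does not say how many buds went into it. The remaining 3 libraries, from stage III (floral organ), are given only as levels beside the others. Nothing in the labels says which plant gave which library, so p-values measure only the spread between these libraries.

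At floral transition a shoot apex stops making leaves and its flanks or its tip become floral meristems. In Arabidopsis thaliana the leaf-made signal FT reaches the apex and leads to activation of the meristem identity genes LFY, AP1 and FUL, which in turn allow the organ identity genes of the MADS-box family, such as the SEPALLATA genes and PI, to be switched on. Repressors such as AGL15 and the TEMPRANILLO gene TEM2 hold the vegetative phase in place. In woody perennials such as tree peony this change takes place inside the closed bud. The files hold no gene names, so the names below are those of the Arabidopsis matches in the study's list of 26 floral development transcripts, each with the cluster number of its identifier.

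The files list 137758 transcripts, of which 63827 had reads in all 6 libraries and 43155 in none of them. The totals were 20065002 to 20996594 fragments in stage I and 20230573 to 25195520 in stage II. The library S1_3 stood apart from its replicates before any test: the squared correlation of log2(FPKM + 1) across transcripts was 0.950 between S1_1 and S1_2, 0.861 and 0.851 between each of them and S1_3, and 0.959 to 0.960 between the stage II libraries. The biological coefficient of variation (the replicate spread estimated by edgeR) was 0.583 in stage I, 0.368 in stage I without S1_3 and 0.314 in stage II. The RNA integrity numbers that the study lists were also lower in every stage I library than in any stage II library, and their part in the results was not tested. The main results are therefore given with and without S1_3.

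Between the stages, 11298 of 64662 tested transcripts (17.5%) changed, by the criterion of a Benjamini-Hochberg adjusted p under 0.05 and a fold change over 2 in edgeR's quasi-likelihood test. Of these, 6136 rose (9.49% of those tested) and 5162 fell (7.98%). Rises were thus 54.3% of the calls, and the median log2 fold change over all tested transcripts was -0.02. This split depended on the scaling and the fit. With library totals in place of TMM factors the median was 0.12 and rises were 64.6% of 11357 calls. With limma on log2(FPKM + 1), which also differs in filter and test, rises were 70.7% of 10771. RLE factors, DESeq2 and limma voom stayed near the TMM split, with rises at 54.6%, 53.8% and 52.0% of their calls. Changes are therefore described relative to the TMM scale. In bud tissue, fewer cells of a type and less RNA per cell cannot be told apart.

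Without S1_3 the same test called 16977 of 67472 transcripts (25.2%), with 9396 rises and 7581 falls. The calls with all libraries were largely among them: 10550 transcripts were called in both fits, which is 93.4% of the calls with all 6 libraries and 62.1% of those without S1_3, and all of them had the same direction. DESeq2 called 15430 transcripts (23.9%) with all 6 libraries, including 99.7% of edgeR's calls. The number of calls fell when another library was left out, to 8747 without S1_1, 5790 without S1_2, 2613 without S2_1, 2163 without S2_2 and 2339 without S2_3. Of the calls with all 6 libraries, 66.3%, 47.6%, 22.6%, 18.7% and 20.3% were also made in these fits. Most calls were thus lost without a stage II library, whichever it was. At the study's own criterion, an adjusted p under 0.001 with a fold change over 2, edgeR called 0 transcripts with all libraries, where 23919 had an unadjusted p under 0.05. It also called 0 without S1_3, where 30556 had an unadjusted p under 0.05. DESeq2 called 7773 at that criterion, of which 4429 rose and 3344 fell. By its methods the study applied this criterion with another package, DESeq, which was not run here.

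The balance between rises and falls changed with the size of the change. Beyond 2-fold there were 1.19 rises for each fall, with 3309 rises and 1881 falls beyond 4-fold (1.76 to 1) and 1244 rises and 264 falls beyond 16-fold (4.71 to 1). The median log2 fold change was 2.13 among rises and -1.72 among falls, so that a typical rise was larger than a typical fall. Fitted fold changes of transcripts without reads in a whole stage depend on edgeR's prior count. With 3 reads per library as a floor for those 250 rises and 60 falls, 1098 rises and 238 falls remained beyond 16-fold (4.61 to 1), and the medians were 2.12 and -1.72.

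**Figure D1:**
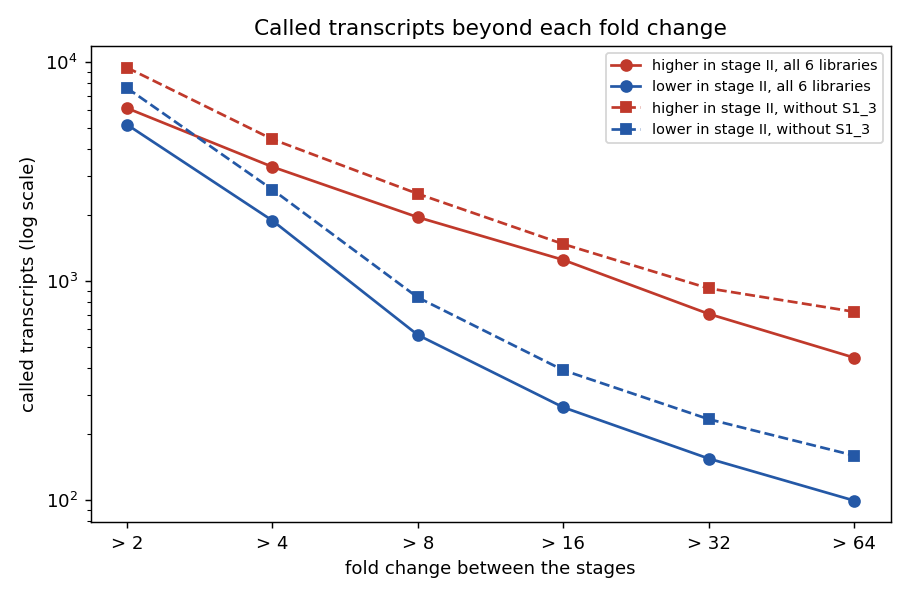
Number of called transcripts (log scale) beyond each fold change from stage I to II, for rises and falls, with all 6 libraries (solid lines) and without S1_3 (dashed lines). The lines for rises and falls are close at 2-fold, with 6136 and 5162 transcripts, and lie apart at 16-fold, with 1244 and 264.

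The excess of large rises was also present without S1_3, with 1469 rises and 390 falls beyond 16-fold (3.77 to 1). It was present at every level of expression. Beyond 16-fold there were 296 rises and 80 falls among transcripts with a mean FPKM of at most 1 over the 6 libraries, 317 and 65 among those at 3 to 10, and 166 and 49 among those over 30. FPKM is the number of fragments per kilobase of transcript, scaled by the size of the library, so it can be compared between transcripts of different length.

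Changes were called more often among abundant transcripts. Low counts limit the tests, and the part of this in the shares below was not tested. Of transcripts with a mean FPKM of at most 0.3 over the 6 libraries, 8.14% were called, against 32.7% of those over 100, and without S1_3 these shares were 11.3% and 40.4%. Rises and falls were both called more often along this scale. Falls made up 3.71% of the lowest bin, 13.96% of the bin from 30 to 100 and 16.2% of that over 100, and rises 4.42%, 11.8% and 16.5%. Without S1_3 falls made up 5.83%, 15.6% and 19.0% of these bins and rises 5.42%, 17.4% and 21.4%. Which of them was more frequent thus depended on S1_3 in the lowest bin and in that from 30 to 100. Over 100, rises were the more frequent with and without it.

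Transcript length went with direction. Among transcripts up to 750 bp long, 16.6% rose and 8.52% fell, and among those over 3000 bp, 6.63% rose and 9.01% fell. The median length was 1698 bp over all tested transcripts, 1553 bp for those that rose and 1725.5 bp for those that fell. Without S1_3 the medians were 1701, 1553 and 1790 bp, and the shares over 3000 bp were 9.26% for rises and 14.2% for falls. Consensus transcripts marked as high quality in their identifiers rose more often (12.7%) than those marked as low quality (8.51%), while 7.18% and 8.23% of the same classes fell.

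**Figure D2:**
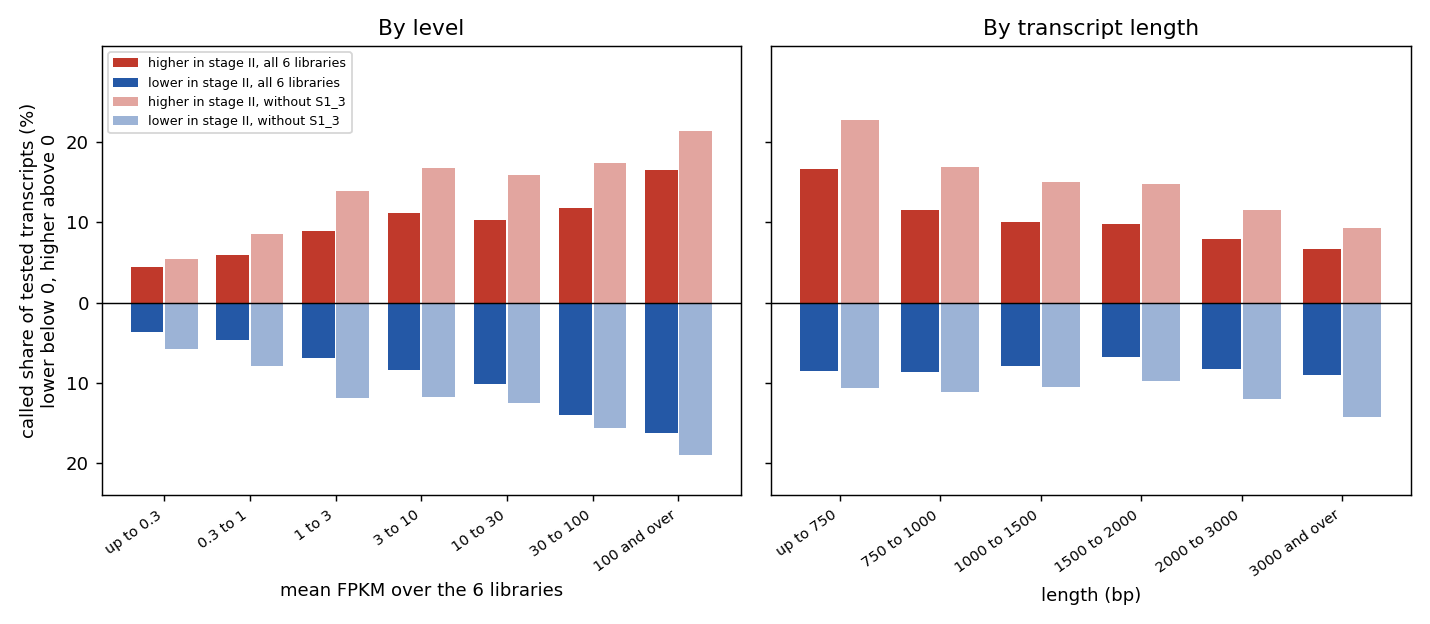
Share of tested transcripts called higher (above 0) and lower (below 0) in stage II, in bins of mean FPKM over the 6 libraries (left) and of transcript length in bp (right), with all libraries (dark bars) and without S1_3 (pale bars). Both shares are larger in the highest than in the lowest bin of level, while the share of rises shrinks with length, from 16.6% up to 750 bp to 6.63% over 3000 bp.

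The called transcripts made up a large part of each library. The transcripts that fell held 23.5% ± 2.30 (SD, n = 3) of the fragments in stage I, with S1_3 the lowest of the stage I libraries at 21.4%, and 7.03% ± 0.378 in stage II. The transcripts that rose held 3.42% ± 0.468 in stage I and 16.8% ± 0.707 in stage II. With calls made without S1_3, falls held 29.9% of the fragments of S1_1 and S1_2 on average and rises 23.4% of those of stage II. The choice of these transcripts fixes the direction of both differences, so they carry no test. In the stage III libraries, which took no part in the calls, the same transcripts were close to stage II: those that rose held 17.7% ± 0.530 and those that fell 6.22% ± 0.325. The rises had a median FPKM of 1.31 (stage I), 7.48 (stage II) and 6.73 (stage III), and the falls one of 7.81, 2.49 and 2.32.

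A few transcripts took more of the stage I libraries. The 100 most abundant transcripts of a library held 12.5% ± 0.483 (SD, n = 3) of its fragments in stage I and 8.97% ± 1.12 in stage II. The highest stage II library, S2_2, was at 10.1% and the lowest stage I library, S1_3, at 11.95%. Each stage I library was above each stage II library (exact permutation test, two-sided, p = 0.1; with 3 against 3 libraries no smaller p exists). The difference, stage II minus stage I, was -3.48 percentage points, and -3.73 without S1_3. Of the 100 transcripts with the highest mean FPKM in each stage, 51 were shared. The top 100 of stage I included 43 transcripts that fell and 0 that rose, and those of stage II included 30 that rose and 8 that fell. Ranking by the level of a stage favours transcripts that are higher in it, so these counts are a description. Over all tested transcripts 9.49% rose and 7.98% fell, and among those with a mean FPKM over 100 the shares were 16.5% and 16.2%. Pairs of libraries from different stages shared 39 to 53 of their top 100, while S1_3 shared 63 with each of its replicates and the other pairs within a stage shared 79 to 88. At a common depth of 20064764 fragments, 78343 ± 1238 transcripts (SD, n = 3) were detected in stage I and 80315 ± 1234 in stage II, a difference of 1972 with overlapping libraries (exact permutation test, two-sided, p = 0.2).

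Few of the changes were a switch between no reads and many. RSEM gave 277 transcripts a rounded count of 0 in all 3 stage I libraries and a rounded count of at least 10 in all 3 stage II libraries, and 61 transcripts the reverse. These definitions fix that the stages differ, so the calls of the 250 and 60 of them that were tested add nothing. The switched-on transcripts were mostly low, with a median of 41.3 reads per library and a median FPKM of 1.44 in stage II, and together they held 0.0999 to 0.107% of the fragments there. In stage III, 167 of the 277 had at least 10 reads in every library and 3 had none in any, while 26 of the 61 switched-off transcripts also had none in any stage III library and 2 had at least 10 in every one. Among all the rises, 3902 (63.6%) already had at least 10 reads in every stage I library, and among the falls 4383 (84.9%) kept at least 10 reads in every stage II library.

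The number switched on or off depended on the libraries. Without S1_3, 469 transcripts were switched on, of which 118 had at least 10 reads in S1_3 itself, and 103 were switched off, of which 31 had a rounded count of 0 in S1_3. Leaving out S1_1 gave 681 switched on, and leaving out S1_2 gave 512. The number switched off was 95 to 137 with any library left out, 137 of them without S2_1. RSEM divides reads between similar transcripts, and only 8 of the 277 and 1 of the 61 had whole counts in all 6 libraries (within 0.005 of a whole number). Whether the zeros come from that division was not tested.

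Among called transcripts whose stages lay apart in FPKM and whose higher stage had a mean of at least 100 reads, the largest changes belonged to transcripts with no gene name in the sources used here. The transcript i2_LQ_HNbud_c52674/f1p46/2753 had 5600, 5402 and 3781 reads in S1_1, S1_2 and S1_3 and none in any library of stages II and III, which is 2010-fold above a floor of 3 reads per library (edgeR adjusted p = 0.00536). In the other direction, i1_LQ_HNbud_c253354/f1p3/1319 had no reads in stage I and 1059, 3276 and 1113 reads in S2_1, S2_2 and S2_3, 496-fold above the floor (edgeR adjusted p = 0.00766), with an FPKM of 40.8, 132 and 53.3 there and of 254 to 419 in stage III. The rule of choice fixed that the stages lay apart. With no reads in a whole stage, the adjusted p of either transcript adds nothing. Both calls were kept with any library left out. Neither fold change is a lower bound, since part of the reads of both was divided among similar transcripts.

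Among the same transcripts, the largest change in mean FPKM was a fall. The FPKM of i1_LQ_HNbud_c278370/f1p26/1014 was 10748, 11328 and 1418 in S1_1, S1_2 and S1_3 and 3.80, 49.4 and 75.1 in S2_1, S2_2 and S2_3. It was the transcript with the second highest FPKM of S1_1 and of S1_2 and ranked 43 in S1_3. That all of stage I lay above all of stage II was fixed by the rule of choice. Its log2 fold change was -7.62 (SE 1.45, edgeR adjusted p = 0.0180), and the call was lost without S1_2, S2_2 or S2_3, where the adjusted p reached 0.0800. Without S1_3 the log2 fold change was -8.11 (adjusted p = 0.00740). The largest gain in level was that of i0_HQ_HNbud_c26243/f3p6/798, with an FPKM of 770, 1187 and 240 in stage I and 2682, 6731 and 3831 in stage II. By the rule of choice every stage II library lay above every stage I library. The log2 fold change was 2.48 (SE 0.64, edgeR adjusted p = 0.0400). That call was kept without S1_3 (2.08, adjusted p = 0.0247) and lost without any other library, with adjusted p of up to 0.107.

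Each library was also placed between the stages by the transcripts called without it, on a scale where 0 is the mean log2 level of stage II and 1 that of the stage I libraries that remained. The stage II libraries had a median place of 0 to 0.04, and 97.4% to 97.9% of the transcripts lay on the stage II side of the midpoint. In stage I the median was 0.79 for S1_1, 1.03 for S1_2 and 0.81 for S1_3. The library S1_3 was therefore on the stage I side at the median, but its transcripts were widely spread, with quartiles of 0.42 and 1.24. On the library's own side lay 70.7% for S1_3, 84.3% for S1_1 and 93.6% for S1_2. These shares rest on different sets of transcripts and are not a like comparison. The calls numbered 16977 without S1_3, 8747 without S1_1, 5790 without S1_2 and 2163 to 2613 without a stage II library. In the transcripts that rose, the median place of S1_3 was 1, with quartiles of 0.51 and 1.49, so deviations to both sides balanced at the median. In those that fell it was 0.66, with quartiles of 0.36 and 0.95.

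**Figure D3:**
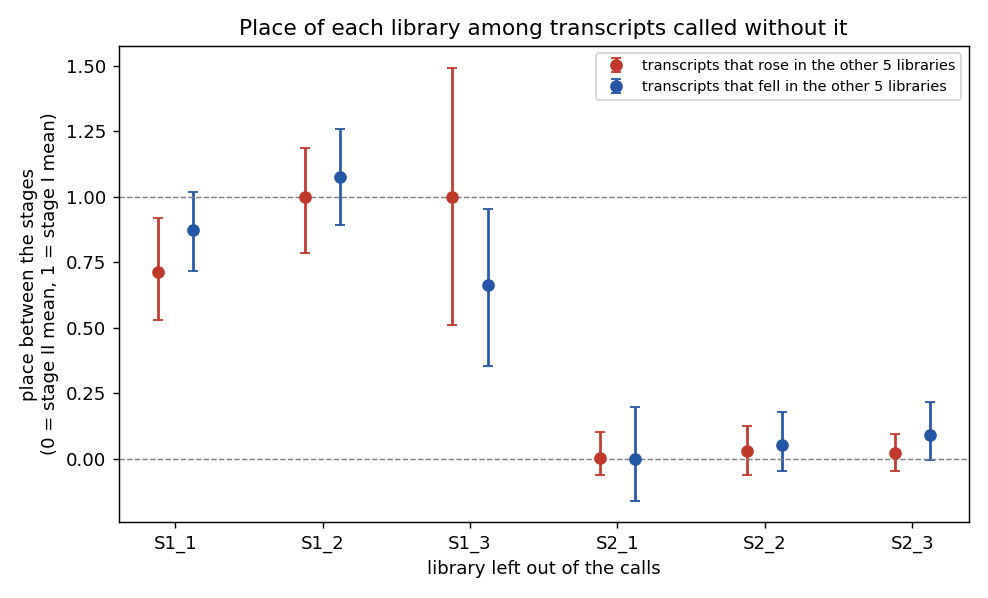
Place of each library between the stages, from the transcripts that rose (red) or fell (blue) in the fit without that library, as the median with bars from the first to the third quartile; 0 is the stage II mean and 1 the stage I mean of log2 CPM. The stage II libraries lie at 0 to 0.09, and S1_3 has the longest bars, with a median of 1 for rises and 0.66 for falls.

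Of the 26 listed transcripts, all were found in the files and 22 passed the filter on low counts. Of the 22, 13 were called (10 higher and 3 lower in stage II) and 9 were not, where 17.5% of all tested transcripts were called. The 13 include 3 switched-on transcripts, whose calls add nothing. Without S1_3, 15 of 24 were called (11 higher and 4 lower), where 25.2% of all tested transcripts were called. DESeq2 called 16 of 22, beside 23.9% of all tested. The number called was 9 of 24 without S1_1 (12.9% of all tested) and 7 of 24 without S1_2 (8.6%). It was 3 of 22 without S2_1 (3.9% of all tested), 4 of 22 without S2_2 (3.2%) and 3 of 24 without S2_3 (3.46%). These counts are no independent evidence, because the study drew up its list from the same series of libraries. It does not say between which stages a listed transcript differs, so the 9 not called need not differ between stages I and II. The ranges of FPKM of the stages did not overlap for 22 of the 26: stage II was above stage I for 18 and below it for 4, whereas over all tested transcripts 46.3% had ranges apart, 29.1% with stage II above and 17.2% with stage II below. The median log2 fold change of the 22 was 1.43, against -0.02 over all tested transcripts. As a group the listed transcripts were not abundant, with a median FPKM of 3.22 over the 6 libraries, against 3.37 for all tested. Reads divided between look-alike transcripts touched 22 of the 26, whose counts were fractional somewhere among the libraries.

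**Figure D4:**
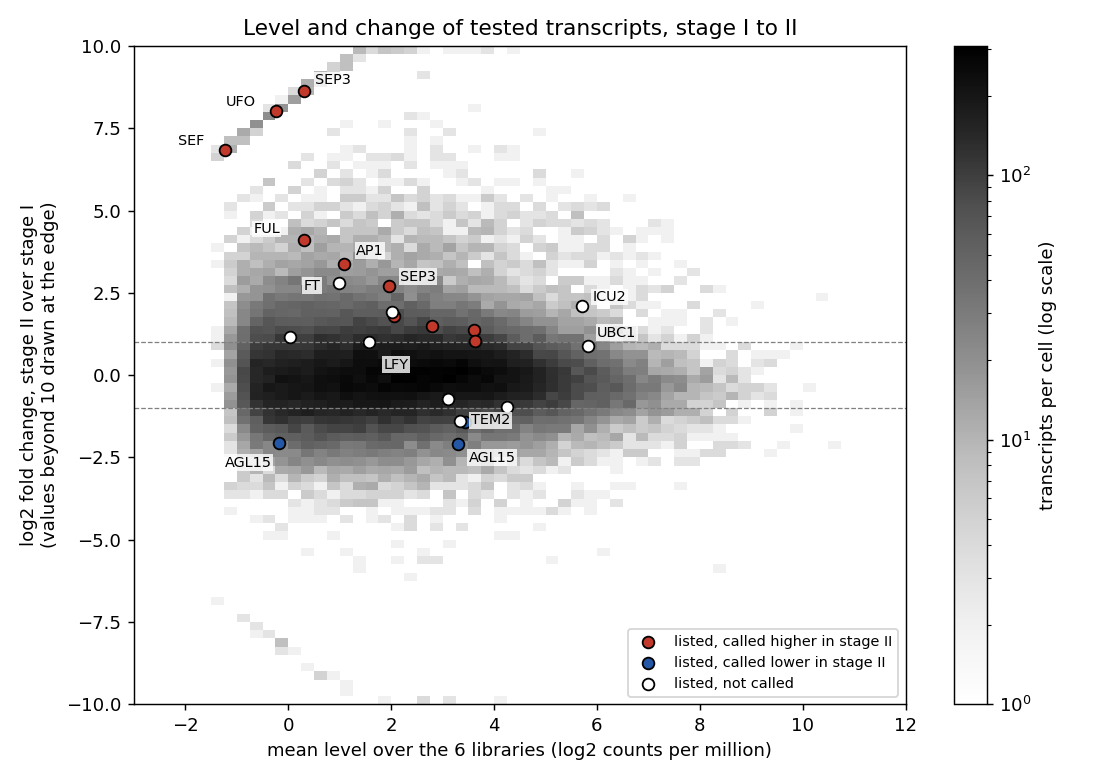
Log2 ratio of stage II to stage I against mean log2 CPM (counts scaled to library size) for the 64662 tested transcripts (grey scale, number per cell on a log scale), with the 22 tested listed transcripts as points; dashed lines mark a 2-fold change, and the upper and lower diagonal streaks are transcripts with no reads in a whole stage, whose fitted fold changes depend on the prior count. The 10 listed transcripts called higher (red) range from ATVGT1 at a log2 fold change of 1.04 to SEP3 at 8.62, and the 3 called lower (blue) lie between -2.08 and -1.43.

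The meristem identity transcripts were low in both stages and none was called lower, where 7.98% of all tested transcripts were. LFY (c105452), the transcription factor that gives a meristem its floral identity in Arabidopsis, had an FPKM of 1.95, 2.52 and 0.05 in S1_1, S1_2 and S1_3 and of 3.93, 3.61 and 2.45 in S2_1, S2_2 and S2_3. The value of S2_3 lay below that of S1_2, so the stages overlapped, and S1_3 was far below its replicates. The log2 fold change was 1.01 (SE 0.99, edgeR adjusted p = 0.495) and 0.45 without S1_3 (adjusted p = 0.307), and LFY was not called in any of the 17 settings that gave it a value. FUL (c91035), a MADS-box factor close to AP1, had an FPKM of 0.05, 0.11 and 0.20 in stage I and of 3.15, 2.08 and 1.90 in stage II. Its stage I level rested on 1, 2 and 4 reads, and from the sums of reads stage II was 18.2 times stage I (95% exact interval for counting error, 8.61 to 45.9). Its log2 fold change of 4.10 (SE 0.57, edgeR adjusted p = 0.00902) was 4.68 without S1_3 (adjusted p = 0.00460). It was the largest among the tested listed transcripts with reads in both stages, and 1178 of the 6136 rises were larger. The call was kept with any library left out.

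The transcripts matched to AP1, the MADS-box factor for floral meristems, sepals and petals, differed in how far they moved. AP1 (c128329) had an FPKM of 0.49, 0.67 and 0 in stage I and of 6.34, 3.85 and 3.29 in stage II, with all stage II libraries above all of stage I. Its log2 fold change was 3.38 (SE 0.93, edgeR adjusted p = 0.0477), and 2.80 (adjusted p = 0.00707) without S1_3, the library where it had no reads. The call was lost when any of the other 5 libraries was left out, with adjusted p of up to 0.137. AP1 (c51214) had an FPKM of 0.46, 0.66 and 0.50 in stage I and of 2.35, 0.87 and 0.87 in stage II. S2_2 and S2_3 lay above stage I by a small margin and S2_1 by a large one, and the log2 fold change of 1.16 (SE 0.53, edgeR adjusted p = 0.163) was not called.

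UFO encodes an F-box protein that works together with LFY in Arabidopsis. UFO (c10259) had no reads in stage I and 62.4, 28.6 and 20.1 reads in S2_1, S2_2 and S2_3, with FPKM of 1.94, 0.93 and 0.78. It was among the 277 switched-on transcripts, 9.60-fold above the floor of 3 reads per library (edgeR adjusted p = 0.0140). That definition fixes the difference, so the adjusted p adds nothing. The call was lost without any of the stage II libraries, with adjusted p of up to 0.0625. UFO (c105095) had 5, 7 and 0 reads in stage I and 39.6, 13.4 and 7.87 in stage II, too few to pass the filter. All 6 meristem identity transcripts had their highest stage II value in S2_1, whereas S2_1 was the highest of the stage II libraries for 50.1% of all rises.

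**Figure D5:**
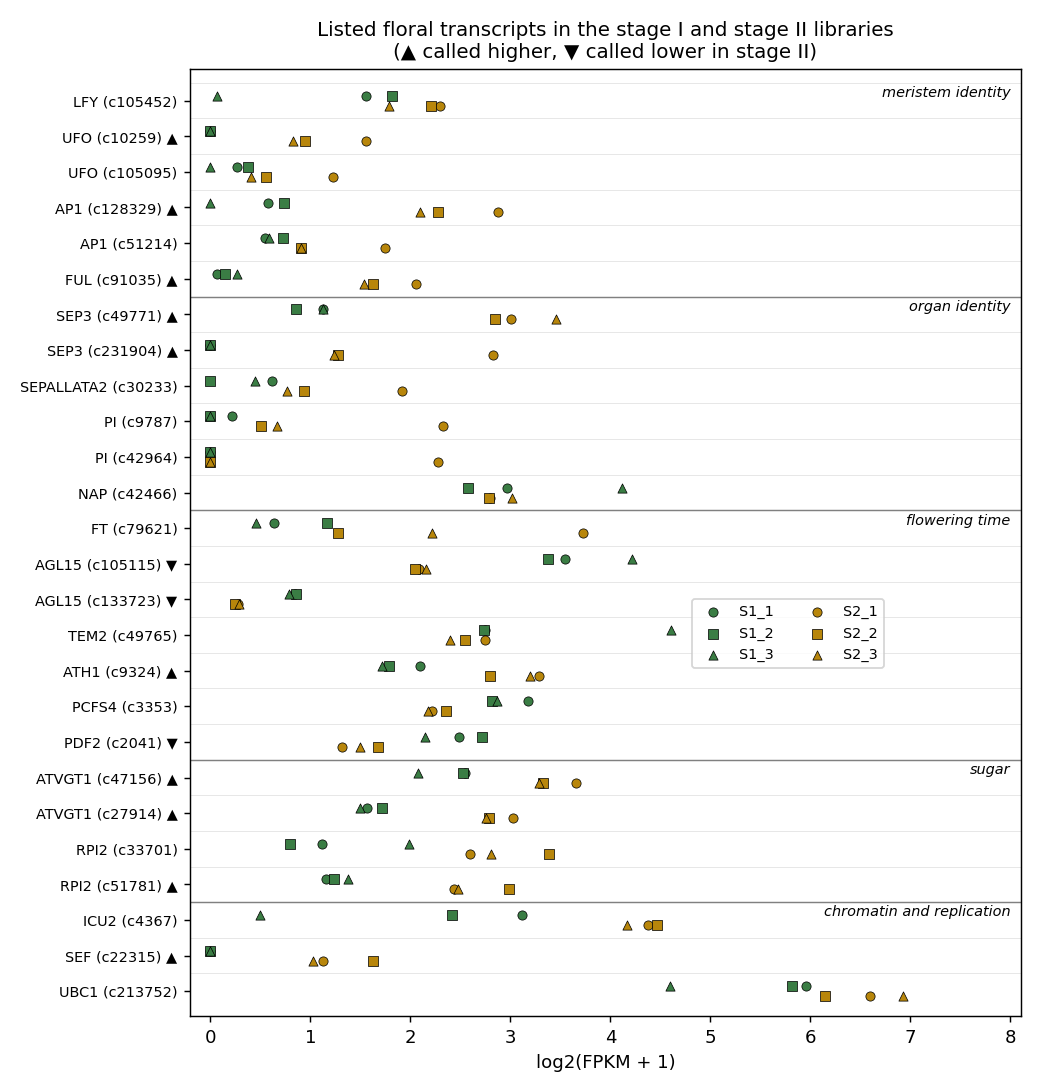
Level of the 26 listed transcripts in each library as log2(FPKM + 1), with stage I in green and stage II in ochre and 1 symbol for each replicate, grouped by role; triangles after the names mark the 10 called higher and the 3 called lower in stage II. The stages lie apart for most transcripts, and S1_3 lies away from S1_1 and S1_2 for LFY, NAP, TEM2 and ICU2.

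Of the organ identity transcripts, those matched to SEP3 rose. The SEPALLATA proteins are MADS-box partners that the organ identity factors need in all whorls of the Arabidopsis flower. SEP3 (c49771) had an FPKM of 1.18, 0.81 and 1.18 in S1_1, S1_2 and S1_3 and of 7.04, 6.20 and 10.01 in S2_1, S2_2 and S2_3. The libraries of each stage were close together and the stages were far apart, with a log2 fold change of 2.71 (SE 0.34, edgeR adjusted p = 0.00766) that was called with any library left out. SEP3 (c231904) had no reads in stage I and 124, 28.0 and 22.4 reads in stage II, 14.6-fold above the floor (edgeR adjusted p = 0.0228). It too was switched on, so its adjusted p adds nothing, and its level in S2_1 was far above those of S2_2 and S2_3. The call was lost without S1_2 or any stage II library, with adjusted p of up to 0.0677. SEPALLATA2 (c30233) had 7, 0 and 5 reads in stage I and 44, 14 and 9 in stage II and was not tested.

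PI, a MADS-box factor for petals and stamens, was close to absent in both stages outside S2_1. PI (c9787) had 2, 0 and 0 reads in stage I and 59.5, 6 and 7 in stage II, or 29.6 times as many after scaling (95% exact interval for counting error, 7.90 to 249). PI (c42964) had 65.5 reads in S2_1 and none in the other 5 libraries. Neither passed the filter on low counts, and in stage III they had 310 to 748 and 194 to 474 reads per library. NAP (c42466), a NAC factor that acts after PI in Arabidopsis, had an FPKM of 6.83, 4.95 and 16.3 in stage I and of 5.93, 5.91 and 7.08 in stage II. Only S1_3 was high, and the log2 fold change of -0.73 (SE 0.46, edgeR adjusted p = 0.301) was -0.03 without S1_3 (adjusted p = 0.935).

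Of the 7 flowering time transcripts, 1 was called higher and 3 lower, where 9.49% and 7.98% of all tested transcripts were. All of these falls were also present without S1_3. AGL15 (c105115), a MADS-box repressor of flowering in Arabidopsis, had an FPKM of 10.7, 9.42 and 17.6 in S1_1, S1_2 and S1_3 and of 3.26, 3.13 and 3.47 in S2_1, S2_2 and S2_3. All stage I libraries lay above all of stage II, with S1_3 the highest. The log2 fold change was -2.08 (SE 0.30, edgeR adjusted p = 0.00974) and -1.74 without S1_3 (adjusted p = 0.00346), and 1707 of the 5162 falls were larger. The call was lost without any of the stage II libraries, with adjusted p of up to 0.0623, while the log2 fold change stayed between -2.07 and -1.97. Most calls over all transcripts were also lost in these fits. The lower of the AGL15 transcripts, c133723, had between 24.6 and 26.1 reads in each stage I library and between 7.07 and 8.36 in each of stage II. Its log2 fold change of -2.07 (SE 0.39, edgeR adjusted p = 0.0177) was nearly that of c105115, and its call was kept only without S1_3 when a library was left out, the adjusted p otherwise reaching 0.0894. PDF2 (c2041), a homeodomain factor of the epidermal layer of the shoot apex, had an FPKM of 4.59, 5.57 and 3.44 in stage I and of 1.49, 2.20 and 1.83 in stage II. The stages did not overlap, and the log2 fold change was -1.43 (SE 0.28, edgeR adjusted p = 0.0199), a call likewise kept only without S1_3, with adjusted p of up to 0.0886 without another library.

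The repressor TEM2 (c49765), an AP2/B3-domain factor that holds FT down in Arabidopsis, had an FPKM of 5.73, 5.66 and 23.4 in stage I and of 5.72, 4.84 and 4.26 in stage II. Only S1_3 was high, and S1_1 and S1_2 were level with S2_1. The log2 fold change was -1.39 (SE 0.60, edgeR adjusted p = 0.147) and -0.34 without S1_3 (adjusted p = 0.238). PCFS4 (c3353), an mRNA 3′ end processing factor that promotes flowering in Arabidopsis, had an FPKM of 8.04, 6.04 and 6.27 in stage I and of 3.64, 4.11 and 3.53 in stage II. The stages did not overlap and the adjusted p was 0.0228 in edgeR, but the log2 fold change of -0.98 (SE 0.21) missed the 2-fold limit, which it passed without S1_3 (-1.03, adjusted p = 0.0129).

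FT (c79621) was the most unevenly distributed of the flowering time transcripts, with an FPKM of 0.55, 1.24 and 0.37 in S1_1, S1_2 and S1_3 and of 12.3, 1.42 and 3.64 in S2_1, S2_2 and S2_3. The lowest stage II library was barely above the highest stage I library. The log2 fold change was 2.81 (SE 0.87, edgeR adjusted p = 0.0654) and 2.52 without S1_3 (adjusted p = 0.0994), so FT was not called. DESeq2 gave it an adjusted p of 0.00869. ATH1 (c9324), a BELL-type homeodomain factor of the shoot apex, was the flowering time transcript called higher, with an FPKM of 3.28, 2.45 and 2.28 in stage I and of 8.75, 5.96 and 8.17 in stage II. The stages were well apart, with a log2 fold change of 1.37 (SE 0.24, edgeR adjusted p = 0.0147) and 1.27 without S1_3 (adjusted p = 0.0114). Its call was lost without S1_2, S2_1 or S2_3, with adjusted p of up to 0.0624.

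The transcripts with roles in sugar metabolism were all higher in stage II than in stage I in every library, and 3 of the 4 were called. Over all tested transcripts, 29.1% had stage II above and 9.49% were called higher. The study itself lists RPI2 under flower meristem identity. ATVGT1 encodes a glucose transporter of the vacuole membrane, and RPI2 a ribose-5-phosphate isomerase of the pentose phosphate pathway. ATVGT1 (c27914) had an FPKM of 1.96, 2.29 and 1.82 in S1_1, S1_2 and S1_3 and of 7.17, 5.92 and 5.74 in S2_1, S2_2 and S2_3. Its log2 fold change of 1.49 (SE 0.22, edgeR adjusted p = 0.00971) was called with any library left out. ATVGT1 (c47156) had an FPKM of 4.85, 4.78 and 3.23 in stage I and of 11.6, 9.03 and 8.74 in stage II. Its stages were as clearly apart, but the log2 fold change of 1.04 (SE 0.23, edgeR adjusted p = 0.0273) was close to the 2-fold limit, and the call was lost whichever library was left out, by size without S1_3 (0.89, adjusted p = 0.0137) and with adjusted p of up to 0.0822 otherwise.

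RPI2 (c51781) had an FPKM of 1.23, 1.36 and 1.59 in stage I and of 4.43, 6.91 and 4.58 in stage II, a log2 fold change of 1.79 (SE 0.32, edgeR adjusted p = 0.0157). The call was lost without S1_2 or any stage II library, with adjusted p of up to 0.0654. RPI2 (c33701) had an FPKM of 1.17, 0.74 and 2.96 in stage I and of 5.05, 9.43 and 6.01 in stage II. The stages lay apart, with S1_3 the highest of stage I. The log2 fold change of 1.92 (SE 0.59, edgeR adjusted p = 0.0623) was not called with all libraries and was called without S1_3 (2.71, adjusted p = 0.00917).

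The last group holds factors of chromatin and DNA replication. ICU2 (c4367), the catalytic subunit of DNA polymerase alpha, had an FPKM of 7.66, 4.33 and 0.41 in S1_1, S1_2 and S1_3 and of 19.8, 21.2 and 17.0 in S2_1, S2_2 and S2_3. All of stage II was above all of stage I, but S1_3 was far below its replicates. With it the log2 fold change of 2.09 (SE 0.88, edgeR adjusted p = 0.136) was not called, and without it that of 1.56 (SE 0.29, adjusted p = 0.0122) was. SEF (c22315), a subunit of the SWR1 complex that deposits the histone variant H2A.Z, was switched on with 13.8, 23.4 and 9.72 reads in stage II, 4.22-fold above the floor (edgeR adjusted p = 0.0198). For this switched-on transcript too the adjusted p adds nothing. SEF met the limit of 10 reads in S2_3 only after rounding, and it had 5.54, 0 and 22.7 reads in the stage III libraries. Its call was lost without any of the stage II libraries, with adjusted p of up to 0.0832. UBC1 (c213752), a ubiquitin-conjugating enzyme that acts on histone H2B in Arabidopsis, was the most abundant listed transcript, with an FPKM of 61.1, 55.2 and 23.1 in stage I and of 95.9, 69.7 and 120 in stage II. The stages did not overlap, and the log2 fold change of 0.89 (SE 0.39, edgeR adjusted p = 0.148) was below 2-fold and not called, nor was that of 0.58 without S1_3 (adjusted p = 0.114), the lowest library.

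The summed levels of the markers followed the labels in every stage I and stage II library. The 11 transcripts matched to LFY, UFO, AP1, FUL, SEP3, SEPALLATA2 and PI had a summed FPKM of 5.02, 5.07 and 2.29 in S1_1, S1_2 and S1_3 and of 42.8, 20.8 and 22.3 in S2_1, S2_2 and S2_3. In the stage I libraries 3, 5 and 6 of the 11 were at 0, and in the stage II libraries 0, 1 and 1. The 3 repressor transcripts of AGL15 and TEM2 had a summed FPKM of 17.2, 15.9 and 41.7 in stage I and of 9.19, 8.16 and 7.95 in stage II. In the stage III libraries this sum was 12.5 to 14.1. TEM2 alone held 23.4 of the sum in S1_3, while in S1_1 and S1_2 it was level with S2_1. By both sums S1_3 lay on the stage I side, with the lowest sum of floral identity transcripts and the highest sum of repressors. The study chose these transcripts on the same libraries, and for other bud tissues such as scales, leaves and vessels no marker was annotated in the sources used here. The only marker of a tissue layer was PDF2, whose values are given above.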

How the data were processed

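RNA from 'High Noon' buds was sequenced in read pairs. After filtering with ng_QC, the authors aligned the pairs with Bowtie2 to their polished long-read transcripts, with no genome, and quantified them by RSEM; versions are not given in the sources used here. For each library they deposited expected counts, unnormalized and often fractional, and FPKM values, scaled by the authors for transcript length and library size. RSEM divides reads among similar transcripts, which moves counts between them. The long reads behind these transcripts came from buds of stages I, II and III. The part of this in the counts of rises, falls and switched transcripts was not tested. The files list more transcripts than the study gives after its removal of redundant sequences, so near-identical transcripts may be listed separately, and which set the reads were aligned to could not be settled.

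Expected counts were rounded, filtered with filterByExpr (minimum count 10, minimum total 15) and scaled by TMM, and the 3 stage I and 3 stage II libraries, grouped by their source labels, were compared with the quasi-likelihood test of edgeR 4.0.16 in R 4.3.3. P-values were adjusted by Benjamini-Hochberg over all 64662 tested transcripts. The SE was derived from the F statistic, as |log2 fold change| over its square root. Single values per library were compared by exact permutation tests with SciPy 1.17.1. Detection at a common depth used the hypergeometric expectation. Totals of 20065002 to 25195520 fragments set the precision. A stage without reads was set to a floor of 3 reads per library; counting intervals are exact (95%), and both cover counting error only, since reads from PCR are not independent molecules.

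The alternatives were DESeq2 1.42.0, limma 3.58.1 (voom with library weights, and log2(FPKM + 1) or log2(FPKM + 0.01) where 3 or more libraries had an FPKM of 1 or more), RLE factors, library totals, no filter, all 9 libraries in the fit, a replicate block, other limits, and each library left out. The code of the fits was tested on simulated counts with less spread than these libraries. That does not test the power of the design.

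The comparison, the lists and the alternatives were chosen with earlier results of these data known. Named transcripts are the 26 that the study lists and, among called transcripts with stages apart in FPKM and a mean of at least 100 reads in the higher stage, the largest rise and fall by fold change and by difference in mean FPKM. Roles and the grouping of the 26 are textbook knowledge of Arabidopsis, and the grouping differs from the pathways that the study lists. Long reads and hormone gene lists were not used here.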

Additional observations from a re-analysis of the deposited data

How the results depend on the processing

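Across 410 values of the listed and the 4 other named transcripts under other settings, 319 kept their direction and their side of the criterion, 72 kept the direction and lost the call, 19 gained it and 0 reversed. The 11298 calls became 2163 to 16977 with a library left out, 2175 at an adjusted p under 0.01, 5190 beyond 4-fold and 18896 in DESeq2 without S1_3. That setting, like the shares by level and length without S1_3, was added once the data were known. At the study's criterion the 0 calls of edgeR became 7773 in DESeq2, 11416 in DESeq2 without S1_3, 1670 with all 9 libraries in the fit, 331 with limma on log2(FPKM + 1) and 72 with voom and library weights. The cause of these differences was not tested. The 13 listed calls became 3 to 15 with a library left out, where 3.2% to 25.2% of all tested transcripts were called. The labels give libraries with the same number nothing else in common. Their deviations correlated at 0.07, -0.14 and -0.03, and S1_2 and S1_3 correlated best with another number. With 3 libraries per stage, these values cannot show whether such libraries share a plant or a batch. With the replicate number as a block edgeR called 0 transcripts and 0 of the 26 listed (smallest adjusted p 0.0508, 19926 with an unadjusted p under 0.05). Switched-on transcripts numbered 277, and 432 with a minimum of 5 reads, 168 with 20, 8 with whole counts only and 351 to 681 with a library left out. Switched-off transcripts numbered 61, and 94, 36, 1 and 95 to 137 under the same settings. The stage II share of the rises was 16.8%, 21.1% of summed FPKM and 5.81% to 23.4% of fragments with a library left out of the calls, and the stage I share of the falls was 23.5% and 6.15% to 29.9%. With library totals the median log2 fold change of -0.02 became 0.12. Low counts limit the tests: 4 listed transcripts were not tested.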

Other observations

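The stage II library S2_1 had the highest level of the 3 stage II libraries for 10 of the 12 transcripts of meristem and organ identity, and for FT. Over all rises it was the highest for 50.1%, and over all tested transcripts for 45.6%. Its summed FPKM of the 11 floral identity markers was 42.8, against 20.8 and 22.3 in S2_2 and S2_3 and 75.8 to 172 in the stage III libraries. This was noticed after the values were seen and was not tested.

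The support of a transcript by long reads, read from the number of full-length reads in its identifier, went with direction. Of the transcripts supported by 1 full-length read, 8.31% rose and 8.27% fell, and of those supported by at least 10, 14.5% rose and 7.37% fell. Without S1_3 these shares were 12.2% and 11.8%, and 21.6% and 8.85%. The study made its long reads from buds of stages I, II and III, in a sample whose RNA values it lists as mixed. Whether this mixture or level accounts for these shares was not tested.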
